A study of Mus musculus with 3 samples.

Results

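The GABA-A receptor is the chloride channel through which most fast inhibition acts in the brain. It is a ring of subunits drawn from several gene families, and the transmitter GABA binds where a beta subunit meets an alpha subunit. The subunit genes examined here were Gabra2, Gabra3, Gabra4 and Gabra5, which encode alpha subunits, Gabrb1 and Gabrb2, which encode beta subunits, and Gabrd, which encodes the delta subunit of receptors outside the synapse. In rodent cortex Gabra2, Gabra3 and Gabra5 are known as subunits that are high around birth, and Gabra4, Gabrb2 and Gabrd as subunits that rise in the weeks after it. Members were probe sets whose platform annotation gave exactly 1 gene symbol, that symbol being one of these 7. The rule found 7 probe sets for 6 genes among 23172 probe sets, of which 14938 carried 1 symbol. Gabrb2 had 2 probe sets, and Gabrb1 had none, since its probe set was also annotated to another gene.

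The RNA came from the neocortex of 3 wild-type mice of the outbred CD1 stock at postnatal day 13, around eye opening, and each animal was hybridised to its own array. All animals belonged to 1 group, so the values describe levels and the spread between animals, with no treatment, genotype or age to compare. Levels are log2 intensities, given as mean ± SD over mice (n = 3). Probes of different genes differ in brightness, so no subunit's level is ranked against another's. In whole tissue, fewer cells of a type and less RNA per cell cannot be told apart.

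The promoters of 3 of these genes are shown. Gabra2 and Gabra3 hold the most and the fewest CG dinucleotides among the 5 measured genes with a RefSeq promoter sequence. Gabrb2 has 3 listed start sites, and its probe sets disagreed between animals, but a link between these was not tested. The sequences are from RefSeq, build GRCm38.p6, and run from 250 bases before to 50 bases after a start site, 5′ to 3′ on the gene's strand. Capitals mark CG dinucleotides and the letters TATAAA. The Gabra2 window is chr5:71095800-71096099 on the minus strand, that of Gabra3 is chrX:72656870-72657169 on the minus strand, and that of Gabrb2 is chr11:42420190-42420489 on the plus strand.
Gabra2: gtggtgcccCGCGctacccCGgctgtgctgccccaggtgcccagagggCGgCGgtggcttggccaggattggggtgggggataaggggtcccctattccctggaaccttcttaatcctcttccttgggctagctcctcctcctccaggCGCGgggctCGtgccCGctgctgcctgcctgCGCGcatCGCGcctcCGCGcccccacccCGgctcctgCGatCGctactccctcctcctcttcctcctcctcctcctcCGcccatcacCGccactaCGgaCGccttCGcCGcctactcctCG
Gabra3: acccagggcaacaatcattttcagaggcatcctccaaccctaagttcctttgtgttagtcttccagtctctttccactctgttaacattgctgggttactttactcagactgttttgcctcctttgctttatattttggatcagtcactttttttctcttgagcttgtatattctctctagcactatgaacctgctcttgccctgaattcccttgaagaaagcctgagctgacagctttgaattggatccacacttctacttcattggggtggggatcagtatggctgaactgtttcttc
Gabrb2: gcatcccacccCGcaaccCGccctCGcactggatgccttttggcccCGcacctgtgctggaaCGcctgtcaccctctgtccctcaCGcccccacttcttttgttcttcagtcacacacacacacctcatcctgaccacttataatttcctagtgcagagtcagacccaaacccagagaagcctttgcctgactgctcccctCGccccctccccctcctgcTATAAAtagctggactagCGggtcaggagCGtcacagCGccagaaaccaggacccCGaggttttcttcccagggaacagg

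RefSeq windows were found for 5 of the 6 measured genes, 8 windows in all. Gabra2 had 25 CG dinucleotides, a number that 18.4% of the 32851 mouse windows of this length reach or exceed. Both Gabra3 windows had 0, as did 5.43% of all windows. Gabra4 had 12, Gabra5 had 13, and the Gabrb2 windows had 11, 9 and 9, against a median of 7 over all windows. The letters TATAAA, searched on both strands, were in the Gabrb2 window shown, with their first base at -30 from the start site, and on the opposite strand in both Gabra3 windows, which overlap each other. They are in 13.6% of all windows. GGGCGG, which contains a CG and was searched in the same way, was in 1 window each of Gabra2, Gabra4 and Gabrb2, and in 35.7% of all windows. CCAAT was in 6 of the 8 windows, covering all 5 genes, and in 37.4% of all windows. TGACGTCA was in 0 of the 8 and in 1.79% of all. These matches describe letters only.

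The subunit genes lie in clusters of the same family. In the order of protein-coding genes in RefSeq, Gabra2 follows Gabrg1 directly on chromosome 5, and Gabra4 and Gabrb1 come next after 1 other gene, with the annotated spans of Gabra4 and Gabrb1 overlapping. Gabra5 follows Gabrg3 directly on chromosome 7. Gabrb2 follows Gabra6 directly on chromosome 11. Gabra3 lies between Gabre and Gabrq on the X chromosome, with 1 gene between it and Gabre. Gabrd is on chromosome 4 with no other subunit gene near it.

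All 7 probe sets exceeded the background limit on every array, as did 74.6% of all single-gene probe sets. The limit of an array was the 95th percentile of 951 chemosensory receptor probe sets (olfactory, vomeronasal and trace amine), which stand in for genes silent in cortex, and 3.26% of these exceeded it on every array. It stood at 6.86 in mouse 1, 6.71 in mouse 2 and 6.69 in mouse 3 on the log2 scale. The smallest margin over it was 2.22 for Gabrd, and the margins of the other 6 probe sets were between 3.84 and 4.99. Of the measured markers, 7 of 7 general neuronal and 5 of 5 excitatory cortical genes were above the limit. But so were 5 of 5 thalamic, 4 of 4 striatal, 6 of 6 cerebellar granule cell, 5 of 5 meningeal and 2 of 3 dentate gyrus genes. This limit thus does not tell neocortex from its neighbours. Median intensities were between 230.6 and 256.6 over the arrays.

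Among the alpha subunits, Gabra2 encodes the subunit enriched at the axon initial segment of cortical pyramidal cells. It was at 10.70 in mouse 1, 10.87 in mouse 2 and 10.88 in mouse 3, a mean of 10.82 ± 0.10. As deposited, mice 2 and 3 were nearly equal (SD 0.0057 without mouse 1) and mouse 1 was lower, and the highest level was 1.13-fold the lowest. After quantile normalization mouse 2 was the lowest and mouse 3 the highest, at -0.053 and 0.066 from the mean. Gabra3, an X-linked gene whose subunit is also known from monoaminergic neurons and the reticular thalamus, was at 11.85, 12.07 and 11.97 in mice 1 to 3 (11.96 ± 0.11), a 1.17-fold spread. As deposited, mouse 1 was again the lowest, and mouse 2 the highest. Quantile normalization made mouse 1 the highest and mouse 3 the lowest, at 0.025 and -0.024 from the mean.

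Gabra5 encodes a subunit that carries much of the tonic current of hippocampal pyramidal cells and is used in deep cortical layers. Its values of 11.07, 11.21 and 11.08 in mice 1 to 3 gave the smallest SD of the 7 probe sets (11.12 ± 0.08), with a 1.10-fold spread. As deposited, mice 1 and 3 were alike, with an SD of 0.0026 between them, and mouse 2 was slightly higher. After quantile normalization mouse 1 was the highest and mouse 3 the lowest, at 0.066 and -0.043 from the mean. Gabra4, whose subunit pairs with delta in receptors of thalamus and dentate gyrus and does not bind classical benzodiazepines, was at 11.21, 11.30 and 11.12 (11.21 ± 0.09). As deposited, it was the one subunit lowest in mouse 3 and not in mouse 1, over a 1.13-fold spread. Quantile normalization put it at 0.11 in mouse 1, its highest, and -0.091 in mouse 3, its lowest. Gabra3 and Gabrb2 probe set 6780331 were then lowest in mouse 3 too, as was Gabra5.

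Gabrd, whose delta subunit gives receptors outside the synapse a high sensitivity to GABA and to neurosteroids, was at 9.07 in mouse 1, 9.43 in mouse 2 and 9.20 in mouse 3 (9.23 ± 0.18). Mouse 2 stood above the others, and the spread was 1.28-fold. Without mouse 2 the SD was 0.087.

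Gabrb2 encodes a beta subunit of many synaptic receptors in the adult brain. As deposited, probe set 6780331 was at 10.99, 11.25 and 11.00 in mice 1 to 3 (11.08 ± 0.15). Mice 1 and 3 were alike (SD 0.0064 without mouse 2) and mouse 2 was higher by up to 1.20-fold. Probe set 6780332 was at 10.77, 11.48 and 11.33 (11.19 ± 0.38), with mouse 1 far below the other two and a 1.64-fold spread. The difference between the probe sets, 6780332 minus 6780331, was -0.22 in mouse 1, 0.23 in mouse 2 and 0.34 in mouse 3, and it ranged over 0.55 between mice. The offset between 2 probe sets is arbitrary, so only its change between mice can be read. Among 83 genes with exactly 2 probe sets above the limit, Gabrb2 included, the median range was 0.39 and 19 genes had a wider one. The part of the transcript that each probe set covers is not given in the sources used here.

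**Figure D1:**
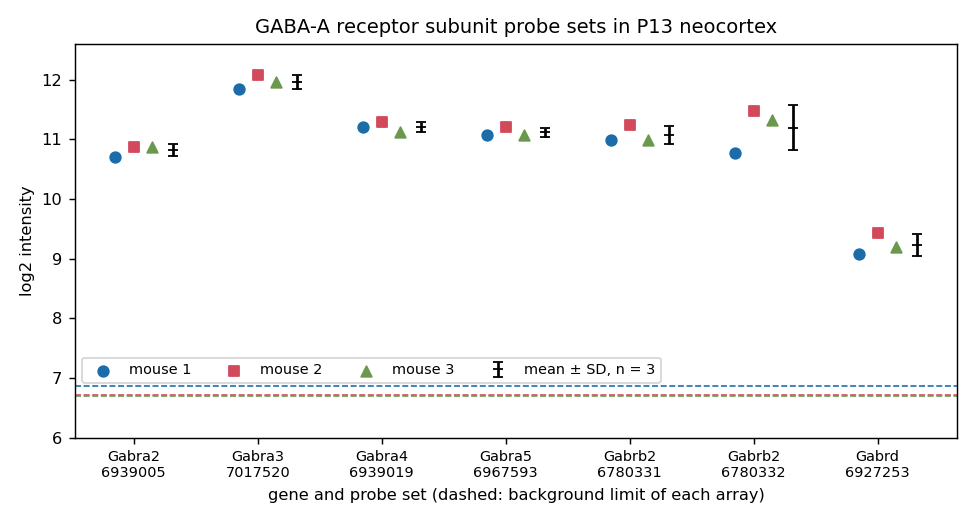
Log2 intensity of the 7 probe sets in each of the 3 mice, with the mean and SD beside them and the background limit of each array as a dashed line. All points lie above the limits, by at least 2.22 for Gabrd, and probe set 6780332 of Gabrb2 has the widest bar (SD 0.38).

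Each subunit's spread between animals was set against that of genes of like level with limma's robust model of the variance, fitted over the 13811 probe sets above the limit. None of the 7 passed at a Benjamini-Hochberg adjusted p under 0.05, where 0.0652% of all probe sets did. At an unadjusted p under 0.05 there was 1 of the 7, probe set 6780332 of Gabrb2 (unadjusted p = 0.0215 and adjusted p = 0.869 in limma's model), against 5.21% of all. Its adjusted p in limma's model was between 0.869 and 0.991 over 12 alternatives, and without mouse 1 its SD fell to 0.11, with an unadjusted limma p of 0.377. The other 6 probe sets had limma adjusted p-values between 0.991 and 0.997. The SDs of the 4 alpha probe sets were below the median SD of 0.16 over all probe sets above the limit, at percentiles 14.8 to 29.2 of them. Gabrd was at percentile 55.1, and the Gabrb2 probe sets were at percentiles 43.7 and 94.8.

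**Figure D2:**
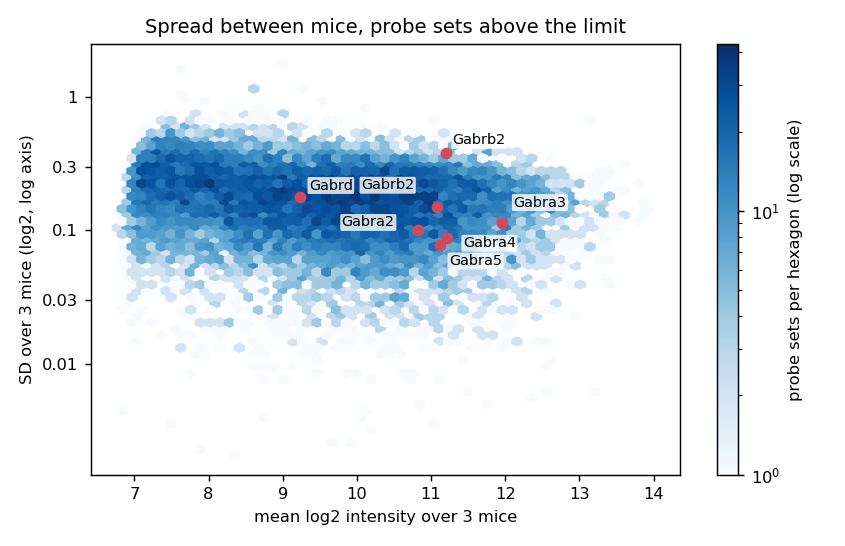
SD over the 3 mice against mean log2 intensity for the 13811 probe sets above the limit (hexagons, shaded by their number) and the 7 subunit probe sets (red points). The 4 alpha probe sets lie at SDs of 0.08 to 0.11 and one Gabrb2 probe set at 0.38, above most probe sets of its level.

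The direction of the small differences between mice depended on how the arrays were scaled. With 1 probe set per gene (6780332 for Gabrb2), 5 of 6 genes were highest in mouse 2 and 5 of 6 lowest in mouse 1, against 59.5% and 53.4% of all single-gene probe sets above the limit. The median deviation of the 6 genes from their own means was -0.12 in mouse 1, 0.10 in mouse 2 and -0.016 in mouse 3, and that of all probe sets above the limit was -0.069, 0.095 and -0.020. The range of the subunit median was 0.22, and that of all probe sets 0.16. The subunit range was 0.20 after median centring, 0.022 after quantile normalization, 0.030 with the shift of probe sets of like level removed and 0.12 without mouse 2. After median centring the subunit median was at -0.13, 0.033 and 0.070 in mice 1 to 3, so mouse 3 and not mouse 2 was the highest. As deposited, the 1000 probe sets nearest in level to each member shifted in the same direction as the subunit median, by -0.15 to -0.056 in mouse 1 and 0.097 to 0.11 in mouse 2.

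With that shift subtracted, the largest deviation among the 4 alpha probe sets was that of Gabra4 in mouse 1, 0.11 above its mean. Gabra5 was at 0.067 in the same mouse, and both were highest there and lowest in mouse 3. Gabra2 was at -0.015, -0.053 and 0.068 in mice 1 to 3 and Gabra3 at 0.034, 0.0054 and -0.037. Gabrd kept mouse 1 as the lowest and mouse 2 as the highest (-0.10 and 0.097), as it did after quantile normalization and after median centring. Gabrb2 probe set 6780332 kept mouse 1 as the lowest at -0.31, with 0.18 in mouse 2 and 0.13 in mouse 3. Probe set 6780331 of the same gene did not, at 0.023, 0.058 and -0.089 in mice 1 to 3, and its lowest mouse was mouse 3 after quantile normalization too. Mouse 1 was the lowest for 6780332 after quantile normalization and median centring as well, while its highest mouse after median centring was mouse 3, by 0.224 against 0.222 in mouse 2.

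**Figure D3:**
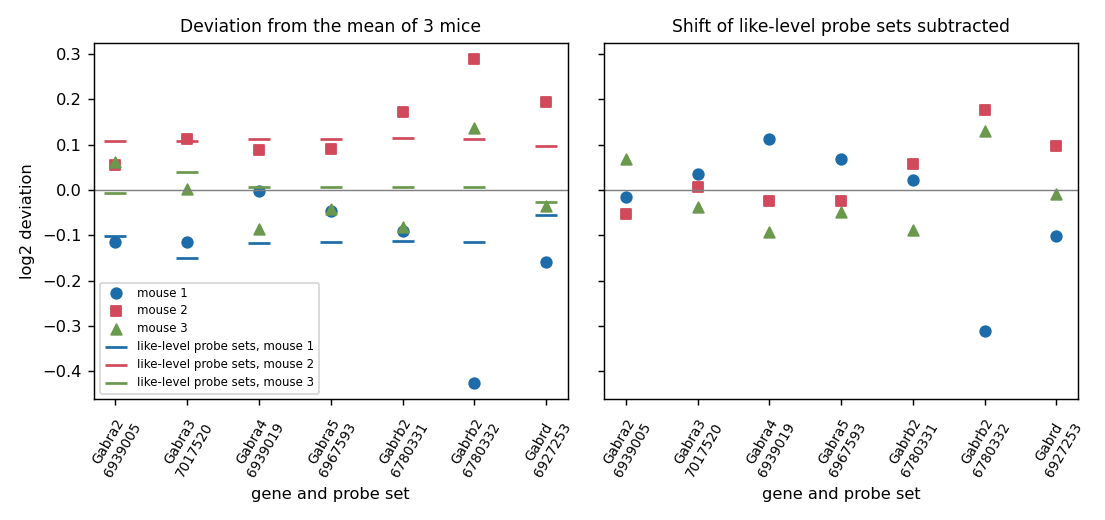
Deviation of each probe set from its own mean over 3 mice on the log2 scale, as deposited (left, with dashes for the median of the 1000 probe sets nearest in level) and with that median subtracted (right). On the left every probe set lies below its mean in mouse 1 and above it in mouse 2, as the dashes do. On the right probe set 6780332 of Gabrb2 stands apart in mouse 1, at -0.31, and the other probe sets deviate by up to 0.11.

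A difference between 2 genes on the same array cancels a shift equal for all its probe sets, but not one that varies with level. In mouse 1 the probe sets of like level shifted by -0.15 for Gabra3 and by -0.056 for Gabrd. Over the 15 pairs of the 6 genes, the SD over mice of the difference between genes, as deposited, had a median of 0.12. The tightest pair was Gabra4 and Gabra5, whose difference varied by an SD of 0.043. The next were Gabra2 with Gabra3 (0.059) and Gabra3 with Gabra5 (0.061). This order depended on the scaling: after quantile normalization Gabra3 with Gabra5 was tighter than Gabra4 with Gabra5. The 5 pairs with Gabrb2 were the widest of the 15, with SDs of 0.24 to 0.37, when Gabrb2 was represented by probe set 6780332. With probe set 6780331 in its place their SDs were 0.060 to 0.13, within the 0.043 to 0.14 of the other 10 pairs. Among the 10 pairs without Gabrb2 the widest was Gabra4 with Gabrd, at 0.14.

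**Figure D4:**
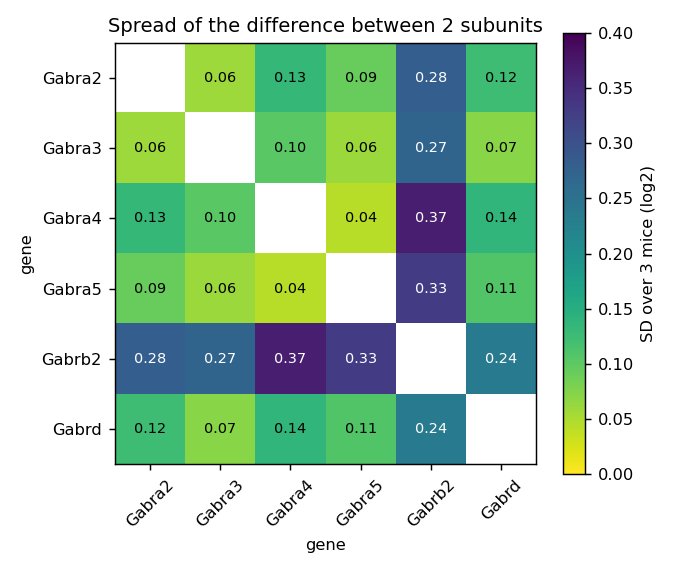
SD over the 3 mice of the log2 difference between each pair of subunit genes, with probe set 6780332 for Gabrb2. With this probe set the row and column of Gabrb2 hold the largest values (0.24 to 0.37), but with probe set 6780331, not drawn, its pairs had SDs of 0.060 to 0.13. Gabra4 with Gabra5 holds the smallest (0.043), on the intensities as deposited.

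The late-rising subunits Gabra4, Gabrb2 and Gabrd were set against the early subunits Gabra2, Gabra3 and Gabra5 within each mouse, as the difference of their median deviations. It was -0.043 in mouse 1, 0.10 in mouse 2 and -0.038 in mouse 3. In each mouse the late median was Gabrd's own value. The early median was that of Gabra3 in mice 1 and 3 and of Gabra5 in mouse 2. Gabra4 (-0.0033, 0.089 and -0.086) and Gabrb2 probe set 6780332 (-0.43, 0.29 and 0.14) lay on either side of Gabrd, as they must around a median. That placing cannot show whether the late subunits moved together. Gabra4, Gabrb2 and Gabrd were each highest in mouse 2 as deposited, as were 59.5% of all single-gene probe sets above the limit. Between Gabrb2 and Gabrd the difference had an SD of 0.24 with probe set 6780332 and 0.060 with 6780331. The range of the late minus early difference, 0.15 between mice, rested on mouse 2, without which it was 0.0048. It was 0.24 after quantile normalization, where mouse 1 was at -0.12 and mouse 3 at 0.017. All animals were of one age, so the series holds no comparison over time.

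Of 12 other subunit genes, 7 had a probe set of their own, and 4 of these were above the limit. Gabrg3, a gamma subunit gene next to Gabra5, was at 10.55, 10.72 and 10.61 in mice 1 to 3 (10.62 ± 0.09). Gabre (7.14 ± 0.24) and Gabrq (7.47 ± 0.27), the epsilon and theta subunit genes beside Gabra3, lay close to the limit. Gabra6, the alpha subunit of cerebellar granule cells, was at 9.67, 9.35 and 9.36 and was highest in mouse 1 under every scaling tried. The 6 granule cell markers measured, Gabra6 included, were all above the limit, with summed intensities on the log2 scale of 12.65, 12.47 and 12.57 in mice 1 to 3. Neocortical cells also use some of them, such as Neurod1. Of the rho subunit genes, which are known from retina, Gabrr1 exceeded the limit in mouse 1 alone (7.23, 6.53 and 6.57) and Gabrr2 in no mouse (5.61 ± 0.22), and Gabrp, a subunit gene known from tissues outside the brain, was likewise under it (5.51 ± 0.08). The other 5 genes were not analysed here.

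Genes that place and traffic the receptor were measured in 14 of 17 cases. All 14 were above the limit, as were 74.6% of all single-gene probe sets. Gphn, the gephyrin scaffold of inhibitory synapses, was at 11.03, 11.22 and 11.35 in mice 1 to 3 (11.20 ± 0.16), and Nlgn2, the adhesion protein of those synapses, at 11.56, 11.70 and 11.55 (11.60 ± 0.08). Lhfpl4, which links receptors to neuroligin, was at 11.15 ± 0.10, and Shisa7, a receptor auxiliary protein, at 9.94 ± 0.14. Gabarap (12.42 ± 0.23) and Gabarapl1 (11.94 ± 0.27), of the family that binds gamma subunits and takes part in autophagy, had the widest SDs of the group and were lowest in mouse 1 under every scaling tried. Nsf, a vesicle fusion factor, had the smallest (12.42 ± 0.02). None of the 14 had an unadjusted p under 0.05 in limma's variance model, against 5.21% of all probe sets above the limit.

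The supply of the transmitter was covered by 7 of 8 genes, all above the limit, as were 74.6% of all single-gene probe sets. Gad2, a GABA-synthesising enzyme, was at 11.39, 11.42 and 11.35 in mice 1 to 3, with a 1.05-fold spread, and Gad1 had a 1.11-fold one. Slc6a13, a GABA transporter of meninges and vessels, had the widest spread, 1.52-fold, with 9.39 in mouse 1, 9.80 in mouse 3 and more in mouse 2. Mouse 2 stayed its highest and mouse 1 its lowest under every scaling tried. The 5 meningeal markers were all highest in mouse 2 as well, but Col1a1 and Col1a2 were lowest in mouse 3 and Mgp, Ptgds and Dcn in mouse 1. Of these 5, 4 had an unadjusted p under 0.05 and 0 an adjusted one in limma's variance model, against 5.21% and 0.0652% of all probe sets. The part of these 5 markers in the value of Slc6a13 was not tested. Slc6a11, the astrocytic GABA transporter, was at 12.04, 11.65 and 11.74, and Abat, which breaks GABA down, at 11.72, 11.42 and 11.53. Both were highest in mouse 1 and lowest in mouse 2 under every scaling tried. Gabbr1, a subunit of the metabotropic GABA-B receptor, was at 12.43 ± 0.10.

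The cotransporters that set the chloride gradient of the GABA-A channel were both highest in mouse 1. Slc12a5, the neuronal chloride exporter, was at 11.46, 11.30 and 11.12 in mice 1 to 3, and Slc12a2, the importer, at 10.21, 9.90 and 10.06. Each was highest in mouse 1 under every scaling tried, and neither passed limma's variance test (adjusted p = 0.988 for Slc12a5 and 0.996 for Slc12a2). Over the 28 genes outside the members that were above the limit, 9 were highest in mouse 1, 17 highest in mouse 2 and 15 lowest in mouse 1, against 25.5%, 59.5% and 53.4% of all single-gene probe sets above the limit.

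**Figure D5:**
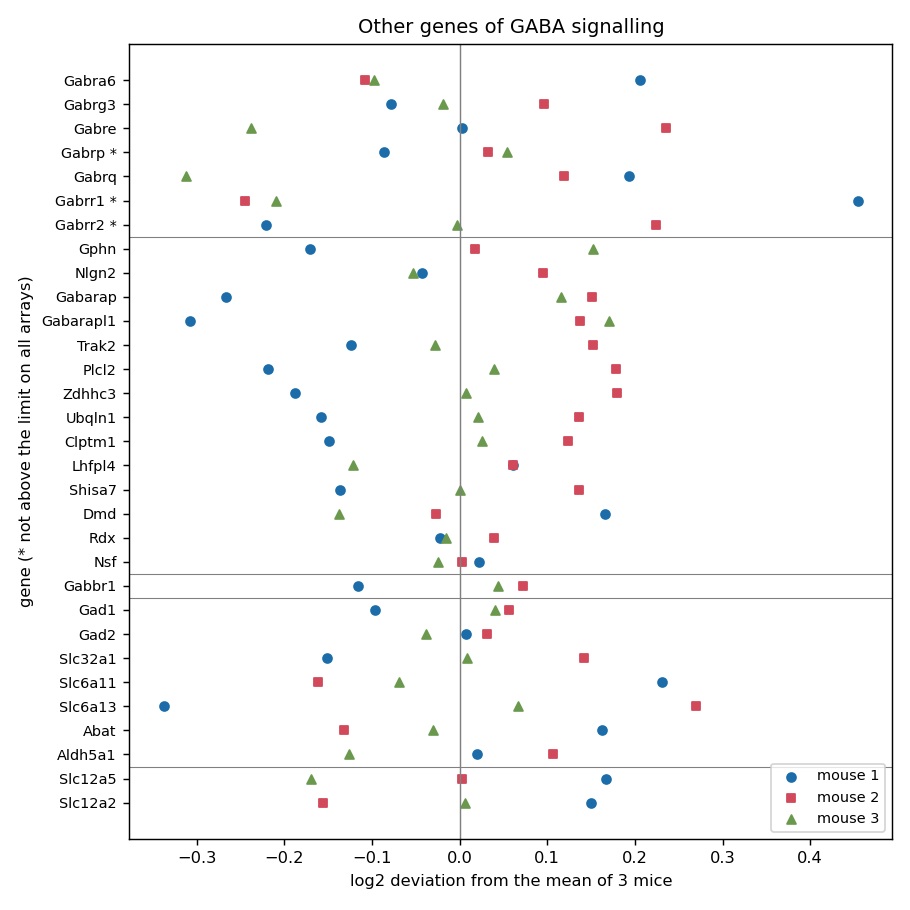
Log2 deviation from the mean of 3 mice for the 31 other measured genes of GABA signalling, with grey lines between subunits, anchoring and trafficking, the GABA-B receptor, GABA supply and the chloride gradient. An asterisk marks the 3 genes not above the limit on all arrays, and both chloride cotransporters have mouse 1 on the right.

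Markers of cell types are given by mouse beside Gabrb2 and Gabrd. Of the 60 measured, 59 were above the limit and so entered limma's variance test. None passed at an adjusted p under 0.05, and 9 had an unadjusted p under 0.05. Over all probe sets above the limit the shares were 0.0652% and 5.21%. Of the 60, 35 were highest in mouse 2 and 40 lowest in mouse 1, where 59.5% and 53.4% of all single-gene probe sets above the limit were. All 8 interneuron markers were highest in mouse 2 as deposited, with summed intensities on the log2 scale of 14.14, 14.53 and 14.37 in mice 1 to 3. Of these, Pvalb, Sst, Vip and Npy had their lowest value in mouse 1 and their highest in mouse 2 under every scaling tried, while Gad1, Gad2 and Lhx6 were highest in mouse 1 after quantile normalization. A sum is carried by its brightest probe sets. The 4 measured striatal markers were all lowest in mouse 1, with sums of 13.27, 13.84 and 13.74. Of the 5 excitatory cortical markers 4 were highest in mouse 2 and 1 in mouse 1, with sums of 14.22, 14.45 and 14.29. The sums of the 5 thalamic markers were 12.85, 13.06 and 12.94, and those of the 5 meningeal markers 13.19, 13.81 and 13.37. For microglia 4 of 5 markers were highest in mouse 2, with sums of 12.31, 12.59 and 12.49. For dentate gyrus 3 of 3 were, with sums of 11.49, 11.76 and 11.68. Other lists went another way. Of 4 astrocyte markers 0 were highest in mouse 2, with sums of 13.55, 13.64 and 13.68. Of 6 cerebellar granule cell markers 5 were highest in mouse 1. Of 4 endothelial markers 3 were highest in mouse 1, with sums of 11.68, 11.44 and 11.29. The 4 oligodendrocyte markers were all highest in mouse 3, with sums of 14.37, 14.50 and 14.67. Of 7 general neuronal markers 2 were highest in mouse 2, with sums of 15.35, 15.49 and 15.53. The part of these markers in the values of Gabrb2 and Gabrd was not tested.

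The median deviations of the 6 subunit genes, as deposited, lay near the deviations of many other genes. Their range over mice fell from 0.22 to 0.022 after quantile normalization. The 5 genes nearest to the subunits' median deviations as deposited were Ptbp3, Paxbp1, Ascc3, Rhbdd2 and Enah, at Euclidean distances of 0.0181 to 0.0184 on the log2 scale over 3 mice. Of 11144 other single-gene probe sets above the limit, 1988 (17.8%) lay within 0.1. So did 3 of the 6 subunit genes, but the medians were taken from these 6, so the shares cannot be compared.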

How the data were processed

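Total RNA extracted with Trizol was labelled with biotin and hybridised to 1 Affymetrix array per mouse, per the labels' protocols. The authors deposited linear intensities per probe set. Per the submitters' processing notes, build mm8 and Affymetrix Power Tools were used. How background, normalization and probe set summary were handled is not given in the sources used here, and overall brightness differs between the arrays, so it can enter small differences between mice.

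Intensities were put on the log2 scale without a pseudocount. The platform annotation supplied gene names: 14938 probe sets had 1 symbol, 989 several and 7245 none here. All probe sets of a member were used, and for medians, pairs and other genes the one with the highest mean. The background limit rests on 951 receptor probe sets, of which 31 exceeded it on all arrays, so it does not test detection. The spread between mice was tested with limma 3.58.1 in R 4.3.3 (fitFDistRobustly, trend on the mean, upper tail of F, Benjamini-Hochberg over 13811 probe sets), and the code was tested on simulated data. Probe sets of like level were the 1000 nearest in mean. Precision is limited by the number of arrays.

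The members and gene lists were chosen with earlier results of these data known. The genes named are the members, the measured genes of those lists and the 5 nearest in pattern. Alternatives left out each mouse, or changed the normalization, pseudocount, limit, filter or variance model. Subtracting the shift of like-level probe sets and using the other Gabrb2 probe set were added after seeing the data.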

Additional observations from a re-analysis of the deposited data

How the results depend on the processing

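All 7 probe sets stayed above the limit, and 0 passed the variance test in limma's model, under every alternative run for these counts; at an unadjusted p under 0.05 there was 1 of 7, or 0 without mouse 1. The range over mice of the subunits' median deviation, 0.22, was 0.20 after median centring, which removes 1 shift per array, and became 0.022 after quantile normalization and 0.030 with the shift of like-level probe sets removed, which take out a shift that varies with level. Leaving out 1 mouse gave a range of 0.12 to 0.20. Median centring kept the range but made mouse 3 the highest in place of mouse 2. The range of the late minus early difference, 0.15, became 0.24 after quantile normalization and 0.25 with the like-level shift removed (the cause was not tested), and 0.0048 to 0.18 with 1 mouse left out, the lowest being without mouse 2. Of 98 values of the mean or SD of single probe sets under alternatives, 90 moved by less than the spread between mice (for an SD, by less than 50% of it), and 8 SDs moved by more, 5 of them with a mouse left out; no mean did. The other Gabrb2 probe set gave 0.20 and 0.17 for the ranges. No paired analysis was possible because there is 1 group. The 3 arrays limit every SD, and so do brightness differences between arrays: probe sets of like level differed between mice 1 and 2 by up to 0.26.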
